A study of Homo sapiens with 6 samples.

Results

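Alpha and beta tubulins were examined in KYSE150 cells, an established line from a human esophageal squamous cell carcinoma (ESCC), with a control hairpin (shCtrl) or a hairpin against the long noncoding RNA AC007128.1 (shAC007128.1). Each group held 3 samples, all of the same line in the same medium, and each group rests on 1 hairpin. The study's methods describe stable lines made by lentivirus and puromycin selection, while the labels speak of transfected cells. The members were 10 genes taken by name among the 67140 gene identifiers of the count table, 4 alpha tubulins (TUBA1A, TUBA1B, TUBA1C and TUBA4A) and 6 beta tubulins (TUBB, TUBB2A, TUBB2B, TUBB3, TUBB4B and TUBB6). All 10 passed the filter on low counts, as did 19254 identifiers in all. The study made the hairpin line to ask which genes respond when AC007128.1 is depleted, and the question here was how the tubulin genes differed between the groups.

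Alpha and beta tubulin join into the heterodimer from which microtubules are built. Microtubules form the mitotic spindle, carry cargo along the cell and shape its migration, and each class is encoded by several genes, called isotypes, whose proteins differ mostly in their acidic C-terminal tails. New tubulin chains are folded by the CCT chaperonin with prefoldin and tubulin cofactors. The amount of tubulin mRNA is under feedback: when free heterodimer is plentiful, TTC5 binds the first residues of the nascent chain and the mRNA on that ribosome is degraded.

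Some of the isotypes are hard to tell apart in short reads. The last 60 coding bases of each beta gene, which encode the tail, are shown from GENCODE v44 on hg38. All lie in exon 4 of the 4 exons of the canonical transcript. Capitals mark bases that differ from, or have no partner in, the end of the most similar member over the whole coding sequence.
TUBB (chr6:30724335-30724394, plus strand): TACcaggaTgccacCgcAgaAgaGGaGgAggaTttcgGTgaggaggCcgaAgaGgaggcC
TUBB2A (chr6:3153866-3153925, minus strand): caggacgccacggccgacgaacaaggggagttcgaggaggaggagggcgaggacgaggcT
TUBB2B (chr6:3224754-3224813, minus strand): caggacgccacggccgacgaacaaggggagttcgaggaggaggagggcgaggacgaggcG
TUBB3 (chr16:89935742-89935801, plus strand): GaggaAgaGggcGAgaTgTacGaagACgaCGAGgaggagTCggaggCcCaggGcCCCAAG
TUBB4B (chr9:137243494-137243553, plus strand): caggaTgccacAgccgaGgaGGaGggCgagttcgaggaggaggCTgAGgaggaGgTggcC
TUBB6 (chr18:12326068-12326127, plus strand): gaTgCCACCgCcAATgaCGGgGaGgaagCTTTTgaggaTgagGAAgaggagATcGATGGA

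The coding sequences of TUBA1A and TUBA1B were 97.2% identical. TUBB2A and TUBB2B differed by 1 base in the window shown and were 98.2% identical over the coding sequence. Identity between members of a class ranged from 84.4% to 97.2% for alpha and from 80.9% to 98.2% for beta tubulins. At the other end of the reading frame, the first 12 coding bases, which encode the residues the feedback pathway reads, were the same (atgcgtgagtgc) in TUBA1A, TUBA1B and TUBA1C. They were shared by TUBB and TUBB4B (atgagggaaatc) and by TUBB3 and TUBB6 (atgagggagatc). These starts, and those of TUBA4A, TUBB2A and TUBB2B, encode the same residues within each class.

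In exact windows of 50 bases along the canonical transcript, 50.6% of those of TUBA1A and 64.6% of those of TUBB2A also occurred in another tubulin gene or pseudogene. The share was 62.7% for TUBA1B, 54.9% for TUBB2B and 26.7% for TUBA1C. It was 19.3% for TUBB, 10.4% for TUBB4B, 9.2% for TUBB3, 5.5% for TUBA4A and 1.1% for TUBB6. The counts of TUBA1A, TUBA1B, TUBA1C, TUBB2A and TUBB2B are therefore uncertain as to which gene a read came from, since how the table's counting handled shared reads is not given in the sources used here. Overlapping genes add to this. TUBA1B shares 1182 bases of its canonical transcript with the antisense gene TUBA1B-AS1, TUBA4A shares 628 with STK16 on the opposite strand, and TUBB3 shares 1584 with the unnamed gene ENSG00000198211 on its own strand. TUBB shares 538 bases and TUBA1C 666 bases with unnamed antisense genes that held at most 289 and 11 counts in any sample. The use of strand in counting is not given either, so reads from a gene and its antisense partner cannot be told apart.

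Total counts were 65140326 to 78610457 in the shCtrl samples and 55764405 to 60158244 in the shAC007128.1 samples, so 3 counts, taken as the smallest detectable level, stood at 0.0373 to 0.0546 CPM, the count scaled by TMM to a common library size. Mitochondrial genes held 9.69% to 10.2% of counts in shCtrl and 7.68% to 9.72% in shAC007128.1 samples. AC007128.1 itself had 69, 33 and 53 counts in shCtrl and 18, 37 and 15 in shAC007128.1 samples, so the groups overlapped and the difference did not pass the test (log2 fold change -0.77 with a standard error, SE, of 0.51 and an adjusted p of 0.271 in the quasi-likelihood test of edgeR). By qPCR, a measure separate from these counts, the paper reports lower AC007128.1 with its hairpin. Keratin KRT5 was at 560.2 CPM or more in every sample. Of 10 markers of blood, endothelial, connective and liver cells, the highest was COL1A1 at 13.3 to 18.6 CPM. Nothing in the labels says whether the samples of a group were separate cultures, so the p-values measure only the spread between these samples.

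Tubulin mRNA was higher in shAC007128.1 than in shCtrl cells, and most of the gain sat in 1 alpha and 1 beta gene. Calls needed an adjusted p no larger than 0.05 and a difference of 2-fold or more, that is 1 on the log2 scale. Of the 10 members, 7 were called higher (TUBB4B, TUBA1A, TUBB3, TUBA1B, TUBB2B, TUBB2A and TUBA4A) and 0 lower, against 5.57% of all tested genes called higher and 10.1% called lower. With no limit on fold change 9 passed as higher, where 21.0% of all genes passed as higher and 19.8% as lower. TUBB6 was the member that did not pass. In 9 members every shAC007128.1 sample lay above every shCtrl sample, as in 27.0% of all genes tested. The median log2 fold change was 1.255 over the alpha and 1.247 over the beta members, and -0.024 over all genes tested. These samples are bulk RNA, in which more tubulin mRNA per cell and more cells of a tubulin-rich state cannot be told apart.

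**Figure D1:**
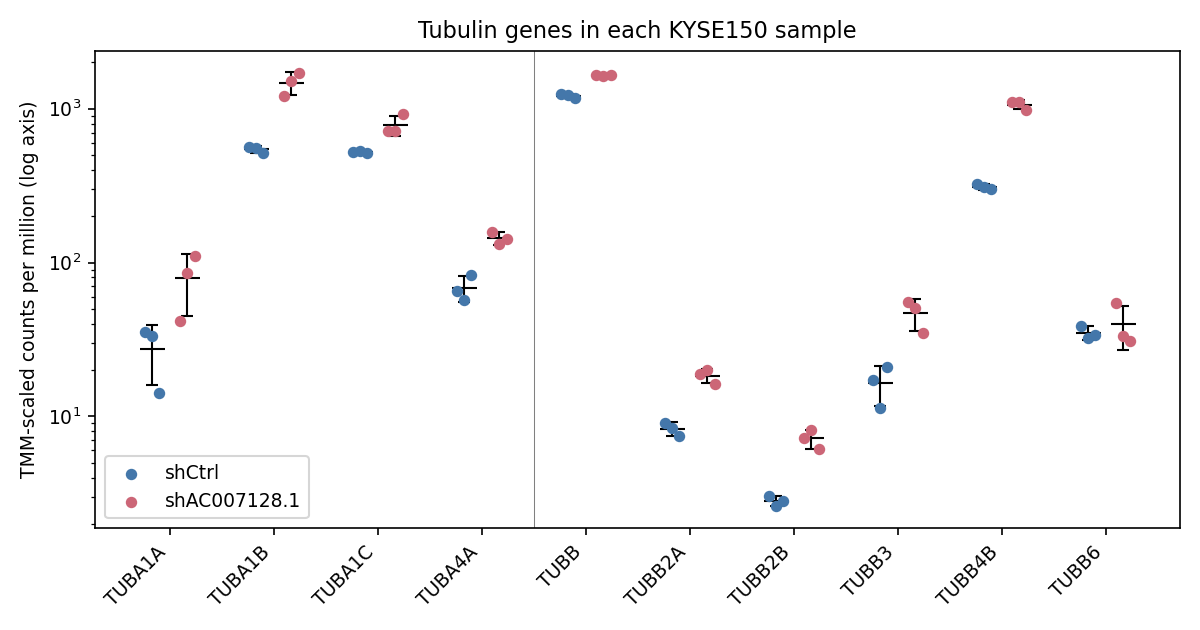
TMM-scaled CPM of the 10 tubulin genes on a log axis, with 1 point per sample (3 shCtrl in blue, 3 shAC007128.1 in red) and black bars for the mean and SD. TUBB4B stands at 298.8 to 323.0 in shCtrl and 979.4 to 1109 in shAC007128.1, while the groups overlap for TUBB6.

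TUBB4B, a beta tubulin made in most tissues, had the largest log2 fold change of the members as reported here. It stood at 323.0, 308.7 and 298.8 CPM in the shCtrl samples and at 1109, 1101 and 979.4 CPM in the shAC007128.1 samples. The samples were tight within each group, and the lowest shAC007128.1 sample was far above the highest control. The mean went from 310.2 ± 12.1 (SD, n = 3) to 1063 ± 72.8 CPM (SD, n = 3), a log2 fold change of 1.78 (± 0.07 SE, adjusted p = 1.6e-05 by edgeR).

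TUBB, the main beta tubulin of most dividing cells, was at 1237, 1223 and 1172 CPM in shCtrl samples and at 1656, 1623 and 1653 CPM in shAC007128.1 samples. The groups did not overlap and the change was small. Its log2 fold change of 0.44 (± 0.05 SE, adjusted p = 0.000448 by edgeR) was 1.36-fold and under the limit for a call.

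TUBB3, known as the neuronal beta tubulin and also made in many carcinomas, was at 17.2, 11.4 and 21.0 CPM in shCtrl and at 55.6, 50.4 and 34.7 CPM in shAC007128.1 samples. Its log2 fold change was 1.51 (± 0.26 SE, adjusted p = 0.00328 by edgeR). The samples of both groups were spread, and replicate 3 was the highest control and the lowest shAC007128.1 sample. TUBB2A and TUBB2B, both on chromosome 6 at 3153497 to 3157544 and 3223324 to 3231730 (hg38), both rose. TUBB2A went from 8.33 ± 0.835 to 18.4 ± 1.89 CPM (SD, n = 3), a log2 fold change of 1.14 (± 0.14 SE, adjusted p = 0.000647 by edgeR). TUBB2B went from 2.82 ± 0.212 to 7.18 ± 1.03 CPM (SD, n = 3), a log2 fold change of 1.35 (± 0.17 SE, adjusted p = 0.000893 by edgeR). Given how many windows they share, they were also fitted as 1 summed gene, whose log2 fold change was 1.20 (adjusted p = 0.000417 by edgeR).

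TUBB6, a broadly made beta tubulin, was at 38.9, 32.3 and 33.8 CPM in shCtrl and at 54.3, 33.5 and 31.0 CPM in shAC007128.1 samples. Replicate 1 of shAC007128.1 stood apart from the other two, which lay within or below the control range. The log2 fold change was 0.18 (95% interval -0.32 to 0.68, adjusted p = 0.545 by edgeR). Without that sample it stood at -0.12 (adjusted p = 0.469 by edgeR).

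Among the alpha genes, TUBA1B, the major alpha tubulin of proliferating cells, was at 563.3, 556.3 and 513.1 CPM in shCtrl and at 1206, 1511 and 1699 CPM in shAC007128.1 samples. The lowest shAC007128.1 sample lay far above the highest control, and the shAC007128.1 samples were spread more widely. The log2 fold change was 1.44 (± 0.12 SE, adjusted p = 0.000158 by edgeR). TUBA1B-AS1, whose exons overlap it, went from 49.3 ± 1.40 to 207.9 ± 35.4 CPM (SD, n = 3), a log2 fold change of 2.08 (± 0.13 SE, adjusted p = 4.89e-05 by edgeR). Summed to 1 gene the pair had a log2 fold change of 1.501.

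TUBA1C, another alpha tubulin of proliferating cells, was at 526.6, 531.5 and 514.2 CPM in shCtrl and at 719.2, 712.9 and 919.3 CPM in shAC007128.1 samples. The controls were nearly level, and replicate 3 was the highest of the shAC007128.1 samples. Its log2 fold change was 0.58 (± 0.10 SE, adjusted p = 0.00391 by edgeR), under the limit for a call.

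TUBA1A, the alpha tubulin of developing neurons, varied most among the members. It was at 35.5, 33.1 and 14.2 CPM in shCtrl and at 41.7, 85.9 and 109.5 CPM in shAC007128.1 samples. The groups did not overlap, but the gap between the highest control and the lowest shAC007128.1 sample was small beside the spread within each. The coefficient of variation was 42.3% in shCtrl and 43.6% in shAC007128.1 samples, where the median over genes with a mean of at least 10 CPM was 5.05% and 10.85%. The log2 fold change of 1.52 (± 0.43 SE, adjusted p = 0.0271 by edgeR) lost its call without shCtrl replicate 2 (adjusted p = 0.0568) or 3 (0.0585), without shAC007128.1 replicate 2 (0.0704) or 3 (0.0864), with the replicate number as a block (0.0735), and in a test against a fold of 1.5 (glmTreat, 0.106). With TUBA1A, TUBA1B and TUBA1C summed to 1 gene, which lie together on chromosome 12 between 49127782 and 49274600 (hg38), the log2 fold change was 1.09 (adjusted p = 0.000377 by edgeR).

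TUBA4A, the alpha tubulin encoded without the final tyrosine that the other alpha members carry, was at 65.0, 57.0 and 83.1 CPM in shCtrl and at 157.7, 131.6 and 142.7 CPM in shAC007128.1 samples. The groups did not overlap, with a log2 fold change of 1.08 (± 0.15 SE, adjusted p = 0.00117 by edgeR). It lies close to the 2-fold limit, and the call was lost without shCtrl replicate 2 (0.96) and with scaling to library size only (0.999). STK16, which overlaps it on the other strand, had a log2 fold change of -0.92 (± 0.10 SE, adjusted p = 0.000377 by edgeR).

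**Figure D2:**
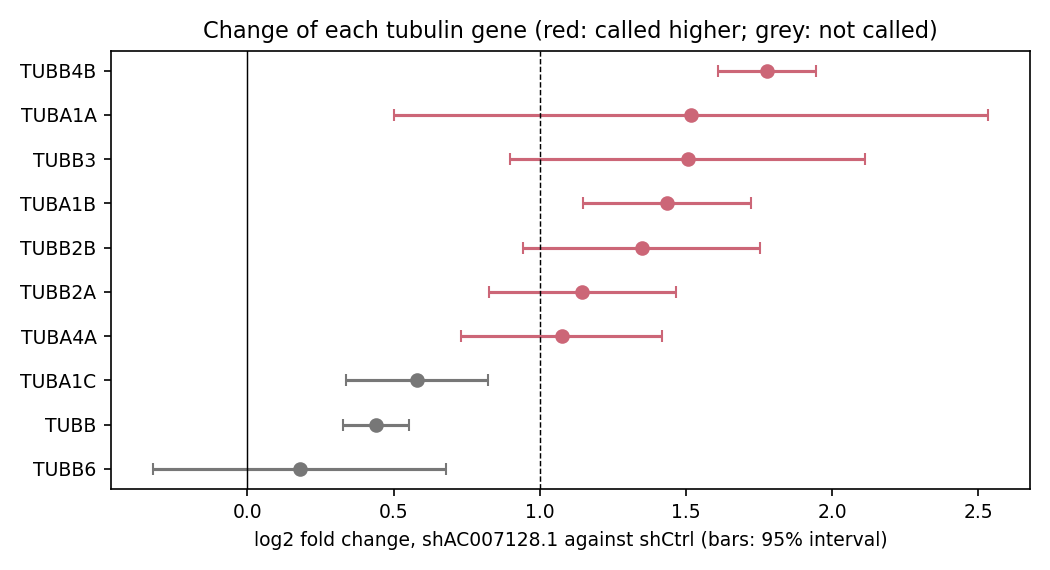
Log2 fold change of each tubulin gene, shAC007128.1 against shCtrl (3 samples each), with 95% intervals from edgeR. A dashed line marks the 2-fold limit, and the interval of TUBB6 (-0.32 to 0.68) is the one that covers 0.

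Levels of different genes can be compared only per length, so counts were divided by the length of the canonical transcript and scaled to the same total in each sample (TPM). In shCtrl cells the order was TUBB (995.9 ± 10.98 TPM, SD, n = 3), TUBA1B (691.8 ± 22.6), TUBB4B (410.4 ± 7.97), TUBA1C (384.1 ± 5.41) and TUBA4A (69.2 ± 14.6). Then followed TUBB6 (38.5 ± 3.23), TUBA1A (33.98 ± 13.9), TUBB3 (20.1 ± 6.10), TUBB2A (10.65 ± 0.86) and TUBB2B (3.03 ± 0.20). Neighbours in this order did not overlap between samples except TUBB6 with TUBA1A and TUBA1A with TUBB3. In shAC007128.1 cells TUBA1B (1834 ± 331 TPM, SD, n = 3) and TUBB4B (1376 ± 92.1) stood above TUBB (1322 ± 14.3), although the samples of TUBB4B and TUBB overlapped. TUBA1C followed at 561.9 ± 86.3, TUBA4A at 142.0 ± 10.4, TUBA1A at 96.0 ± 42.6, TUBB3 at 55.6 ± 12.5, TUBB6 at 42.5 ± 13.0, TUBB2A at 23.1 ± 2.46 and TUBB2B at 7.56 ± 1.14. Of these, TUBA4A overlapped with TUBA1A, TUBA1A with TUBB3 and TUBB3 with TUBB6. Both orders rest on the canonical length and can change with the length of all annotated exons, by which no order is given here. Canonical and all-exon lengths are 1627 and 3574 bases for TUBA1B, 1563 and 2037 for TUBB4B, and 1706 and 7421 for TUBB3.

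Summed over the class, alpha tubulin stood at 1188, 1195 and 1154 TPM in shCtrl and at 2180, 2665 and 3056 TPM in shAC007128.1 samples, a ratio of means of 2.23. Beta tubulin stood at 1494, 1477 and 1464 TPM against 2868, 2905 and 2709 TPM, a ratio of 1.91. The groups did not overlap for either total, and alpha was the more variable class in shAC007128.1 cells. Together the 10 genes made up 0.266% ± 0.00344 of all TPM in shCtrl and 0.546% ± 0.0371 in shAC007128.1 samples (SD, n = 3). The ratio of alpha to beta was 0.797 ± 0.0107 in shCtrl and 0.935 ± 0.185 in shAC007128.1 samples, and its shAC007128.1 values of 0.760, 0.918 and 1.13 lay on both sides of the controls. Of the gain in alpha, 78.5% was TUBA1B and 12.2% TUBA1C. Of the gain in beta, 71.6% was TUBB4B and 24.2% TUBB.

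**Figure D3:**
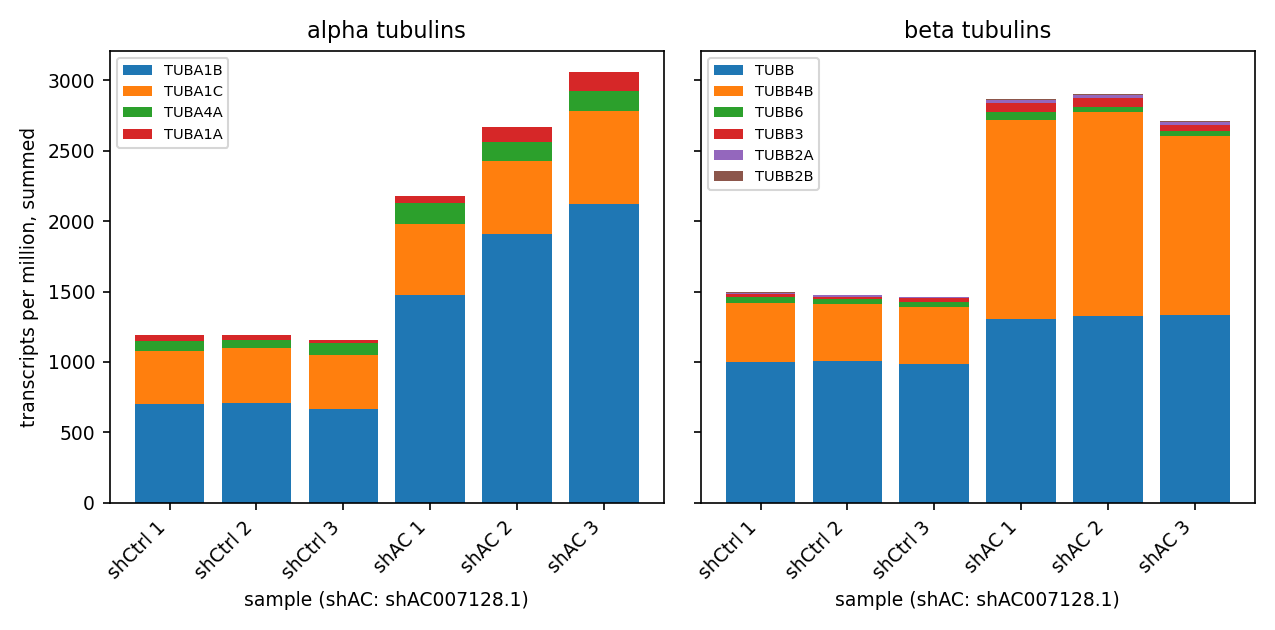
Stacked bars, from 0, of TPM of the alpha (left) and beta (right) tubulin genes in each of the 6 samples. The beta total stands at 1464 to 1494 in shCtrl and at 2709 to 2905 in shAC007128.1, and most of the difference lies in the TUBB4B segment.

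The mix of isotypes differed as well. TUBB4B made up 28.1%, 27.7% and 27.6% of the beta total in shCtrl samples and 49.1%, 49.8% and 47.0% in shAC007128.1 samples. TUBB went the other way, from 67.4% ± 0.67 to 46.8% ± 2.12 (SD, n = 3), although its own level was higher. In the beta class of shAC007128.1 cells the pair thus stood at nearly equal shares by canonical transcript length, and this near equality depends on the length used. Canonical and all-exon lengths are 2515 and 4071 bases for TUBB and 1563 and 2037 for TUBB4B. The shares themselves by all annotated exons are not given here. By that length the difference between groups was 22.1 percentage points for TUBB4B and -21.5 for TUBB, against 20.9 and -20.5 by canonical length. Among alpha genes TUBA1B went from 58.7% ± 0.83 to 69.5% ± 2.05 and TUBA1C from 32.6% ± 0.74 to 21.4% ± 1.87 (SD, n = 3). TUBB6 went from 2.60% ± 0.20 to 1.499% ± 0.43 of beta tubulin (SD, n = 3). For these 5 genes and TUBB2B the shares of the groups did not overlap, and the exact permutation test, two-sided, gave p = 0.1, the smallest that 3 samples against 3 allow, so none of the 10 shares tested could reach 0.05. The shares of TUBA1A, TUBA4A, TUBB2A and TUBB3 overlapped, with exact permutation p-values of 0.2 to 0.6.

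**Figure D4:**
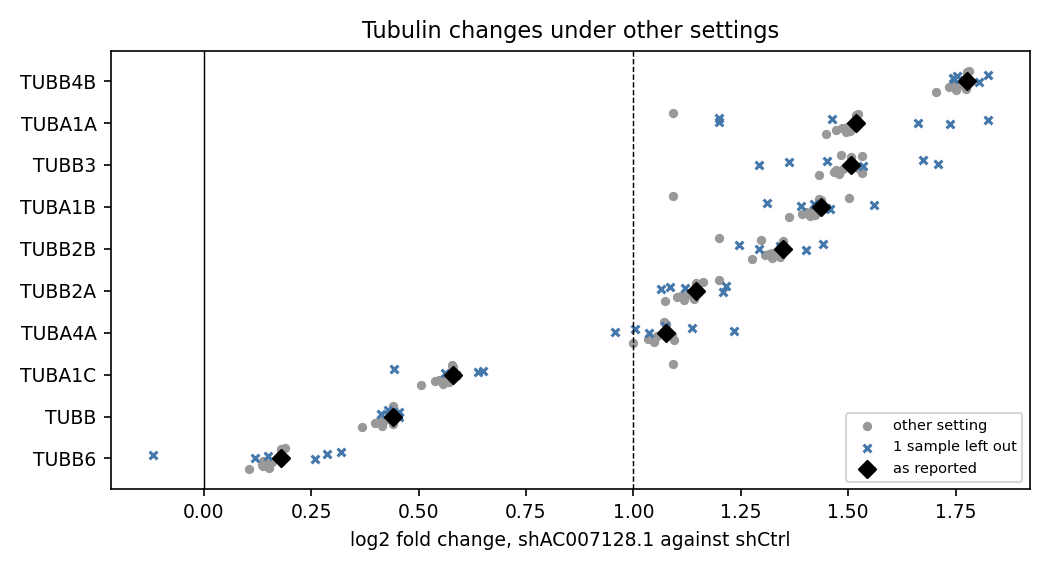
Log2 fold change of each tubulin gene as reported (black diamonds), with 1 sample left out (blue crosses) and under other settings (grey points). Grey points include fits of summed genes, drawn on the row of each member summed, as at 1.09 for TUBA1A, TUBA1B and TUBA1C. TUBB4B ranges from 1.70 to 1.82, and TUBB6 crosses 0 in 1 setting.

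The 250 bases before each RefSeq transcription start (GRCh38.p14) were searched for short motifs. A CCAAT box (CCAAT or ATTGG), a site bound by NF-Y in many cell cycle promoters, was in 7 of the 10 members and in 32.0% of 35116 promoters of the same length. The 3 without one were TUBA1B, TUBA4A and TUBB2A. The 35116 promoters were not matched to the members for level or base content, and a gene can have several. Whether the boxes have a part in the tubulin changes was not tested. TUBB4B held 3, the most of any member, and TUBA1B 0, so the upstream sequences of these members, which had the largest gains in TPM, are shown with CCAAT boxes in capitals.
TUBB4B (chr9:137241037-137241286, plus strand): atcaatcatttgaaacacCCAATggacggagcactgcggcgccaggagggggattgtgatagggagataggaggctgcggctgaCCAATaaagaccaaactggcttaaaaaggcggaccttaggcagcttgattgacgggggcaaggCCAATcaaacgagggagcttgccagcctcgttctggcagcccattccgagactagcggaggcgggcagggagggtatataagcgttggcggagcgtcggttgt
TUBA1B (chr12:49131396-49131645, minus strand): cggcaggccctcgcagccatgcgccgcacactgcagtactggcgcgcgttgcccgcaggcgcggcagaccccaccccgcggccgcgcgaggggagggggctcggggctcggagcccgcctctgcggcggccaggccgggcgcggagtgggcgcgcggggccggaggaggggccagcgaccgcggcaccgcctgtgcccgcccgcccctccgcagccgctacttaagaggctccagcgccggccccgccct

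The boxes of TUBB4B begin 232, 166 and 103 bases before its start. The core heat shock element, GAANNTTC or TTCNNGAA, was in 0 of the 10 windows and in 11.6% of all promoters. The CHR element (TTTGAA or TTCAAA), which the cell cycle repressor DREAM binds, was in 2 of the 10, TUBB4B and TUBA1C, and in 13.3% of all promoters. A GC box (GGGCGG or CCGCCC) was in 8 of the 10 and in 42.6% of all promoters. The exact letters TATAAA on the forward strand were in TUBB2A alone among the 10 and in 6.8% of all promoters. TATAAA is a form of the TATA box, and other forms were not searched, so the other members cannot be called free of the box. The windows of TUBB4B and TUBA1C hold tatataag, which the search did not count. A match is a description of these letters and not a binding site.

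The remaining alpha and beta tubulin genes were low. Of 8 such genes 4 were tested, and TUBAL3, an alpha tubulin-like gene, was called lower, from 3.92, 3.28 and 3.87 CPM in shCtrl to 0.37, 0.73 and 0.36 CPM in shAC007128.1 samples. Its log2 fold change was -2.92 (± 0.32 SE, adjusted p = 0.000455 by edgeR). As background, 5.57% of all tested genes were called higher and 10.1% lower, and this list was not tested against these shares. TUBA3C and TUBB4A had no counts in any sample. A count of 0 allows a level of up to 3 counts, or 0.0373 to 0.0546 CPM.

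The gamma tubulin ring complex, which nucleates microtubules, was listed with the delta and epsilon tubulins of centrioles. Of these 14 genes, 2 were called higher and 1 lower, with a median log2 fold change of 0.24, where 5.57% of all tested genes were called higher and 10.1% lower. MZT1, a small subunit needed to activate the complex, went from a mean of 24.7 to 96.6 CPM (log2 fold change 1.97 ± 0.10 SE, adjusted p = 3.01e-05 by edgeR). TUBG1, the main gamma tubulin, had a log2 fold change of 1.12 (± 0.12 SE, adjusted p = 0.000481 by edgeR). TUBE1, epsilon tubulin, fell by 1.65 on the log2 scale (± 0.14 SE, adjusted p = 0.000173 by edgeR).

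All 8 subunits of the CCT ring, which folds tubulin and actin, passed as higher with no limit on fold, and 2 were called. These were CCT6A (log2 fold change 1.16 ± 0.06 SE) and CCT3 (1.01 ± 0.06 SE), with edgeR adjusted p-values of 2.54e-05 and 5.00e-05. The list's median was 0.68. As background for this list and the prefoldin and cofactor lists, 5.57% of all tested genes were called higher and 10.1% lower. Without the limit on fold, 21.0% of all tested genes passed as higher and 19.8% as lower. Of the 6 subunits of prefoldin, which delivers chains to CCT, PFDN2 was called lower (log2 fold change -1.12 ± 0.11 SE, adjusted p = 0.000348 by edgeR), VBP1 passed as higher at 0.66 and 4 did not pass. Of the 8 tubulin cofactors and helpers 0 were called, 3 passed as higher, 1 passed as lower and 4 did not pass, with a median of 0.27. TBCD, which handles beta tubulin, was at 0.71 and TBCE, which handles alpha tubulin, at -0.43.

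The genes of the feedback on tubulin mRNA showed no calls among 12, with 5 passing as higher and 2 as lower without the limit on fold and a median of 0.14. Among all tested genes 5.57% were called higher and 10.1% lower, and 21.0% and 19.8% passed without that limit. The list was not tested against these shares, so its lack of calls is not a result about the feedback. TTC5, which reads the nascent chain, was at 30.8 CPM in shCtrl and 34.1 CPM in shAC007128.1 cells (log2 fold change 0.15, 95% interval -0.05 to 0.34, adjusted p = 0.199 by edgeR). SCAPER, which links TTC5 to the CCR4-NOT deadenylase, was at 0.56 (adjusted p = 0.00867 by edgeR).

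Of 22 tubulin modifying enzymes 18 were tested and 2 were called, both lower, with a median of -0.08. That count is near the background, in which 10.1% of all tested genes were called lower, and without the limit on fold 4 passed as higher and 5 as lower, where 21.0% and 19.8% of all genes did. They were VASH1, a carboxypeptidase that removes the final tyrosine of alpha tubulin (log2 fold change -2.20 ± 0.45 SE, adjusted p = 0.00735 by edgeR), and TTLL1, a polyglutamylase (-1.75 ± 0.22 SE, adjusted p = 0.000891 by edgeR). TTL, which puts the tyrosine back, passed as higher at 0.46 (adjusted p = 0.00332 by edgeR).

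Of 16 microtubule destabilisers and severing enzymes 14 were tested, 5 were called higher and 0 lower, with a median of 0.83. The called genes with the smallest p were the katanin-like severing subunit KATNAL1 (log2 fold change 2.57 ± 0.17 SE, adjusted p = 5.6e-05 by edgeR) and the kinesins KIF18B (1.38), KIF24 (1.51) and KIF18A (1.05). Of 22 assembly and stabilising proteins 21 were tested, 4 were called higher and 0 lower, with a median of 0.30. For both lists the background was 5.57% of all tested genes called higher and 10.1% called lower. TPX2 and PRC1, both spindle proteins, had log2 fold changes of 1.14 and 1.38, and the plus-end binding protein MAPRE2 1.32. MAP1B, at 1.75, was near 1 CPM or below in both groups.

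Other gene groups moved with the tubulins, and their part in the tubulin result was not tested. The background for the counts below was 5.57% of all tested genes called higher and 10.1% called lower. Without the limit on fold, 21.0% passed as higher and 19.8% as lower. All 14 mitotic cell cycle genes passed as higher and 11 were called, with a median log2 fold change of 1.22. Their summed level was 1508 to 1560 CPM in shCtrl and 3766 to 4140 CPM in shAC007128.1 samples. Those with the smallest p were CCNA2 (1.99), TOP2A (1.76), PLK1 (1.23) and CENPF (1.44). All 10 heat shock genes passed as higher and 8 were called, with a median of 1.39 and a summed level of 1972 to 2065 CPM against 6798 to 7195 CPM. They included HSPA8 (2.92), HSP90AA1 (2.49), HSPH1 (1.76) and HSPD1 (1.21). Of 10 squamous epithelial markers 2 were called higher, KRT14 (57.9 to 62.6 CPM in shCtrl and 255 to 316 CPM in shAC007128.1) and KRT6A (32.5 to 37.1 and 173 to 213 CPM), and 1 lower, the desmosomal cadherin DSG3 (196 to 206 and 87.5 to 105 CPM). Of 10 markers of other cell types 4 were tested and 0 called, with 1 passing as higher without the limit on fold, and their summed level was 16.3 to 17.96 CPM in shCtrl and 17.7 to 21.8 CPM in shAC007128.1 samples. The mitotic and heat shock lists were written with earlier results of these samples known, so they are not independent evidence of direction.

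**Figure D5:**
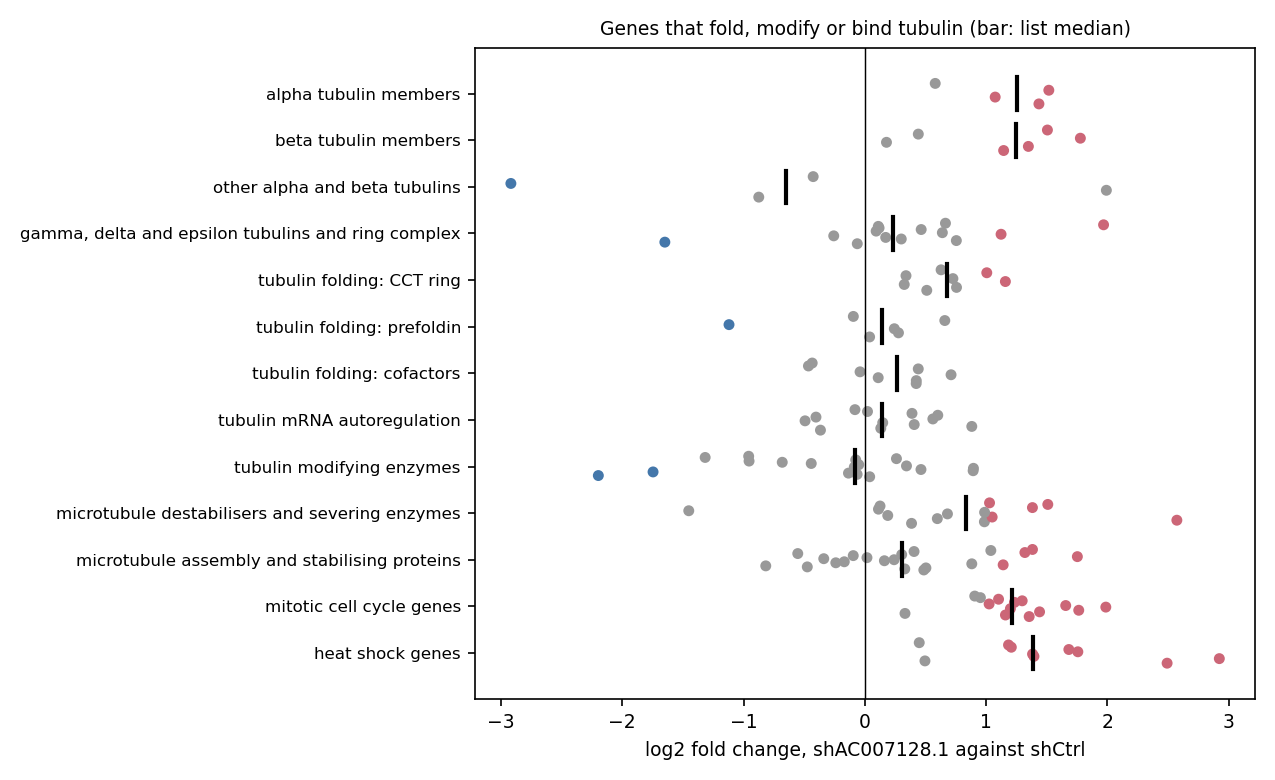
Log2 fold change of the tested genes in each list, shAC007128.1 against shCtrl, with 1 point per gene (red called higher, blue called lower, grey not called) and a black bar at the list's median. The alpha and beta members have medians of 1.255 and 1.247, the CCT ring 0.68 and the modifying enzymes -0.08.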

How the data were processed

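Poly-A RNA of KYSE150 cells was sequenced as paired-end TruSeq libraries, 3 samples per group. The authors filtered the reads and mapped them to hg38 with TopHat and derived FPKM with Cufflinks. The submitters' processing notes list TopHat2 2.0.6, where the paper's methods name another release, and the mouse build mm10 beside GRCh38. Which release and build stand behind the count table was not settled here beyond its human gene identifiers. The deposited values are counts per Ensembl gene, whole numbers without normalization, and the counting program, annotation release and use of strand are not given in the sources used here. In shCtrl replicate 1, 761 genes had 3 counts, 1355 had 4 and 993 had 5, so counts divided by 4 were an alternative. Samples were mapped by their titles, since the treatment label names the AC007128.1 hairpin for every sample, and 0 columns were left unmapped. Symbols and positions came from GENCODE v44, which held 60357 of 67140 identifiers (89.9%) and all 10 members.

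Counts were filtered with filterByExpr, scaled by TMM (factors 0.967 to 1.042) and tested across all genes with edgeR 4.0.16 (glmQLFit, glmQLFTest) in R 4.3.3 with Benjamini-Hochberg adjustment over 19254 genes. CPM used the same factors. Standard errors are the log2 fold change over the root of F. TPM used canonical transcript lengths. The steps were tested on simulated counts. Alternatives were DESeq2 1.42.0, limma-voom (limma 3.58.1), other filters, scaling and thresholds, thinned libraries, a replicate block, each sample left out, summed paralogs and other lengths. Summing TUBA1B with TUBA1B-AS1, TUBB3 with ENSG00000198211, and TUBA1A, TUBA1B and TUBA1C was chosen after seeing the data.

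The members and lists were chosen with earlier results of these data known. Genes named are the 10 members, TTC5, and the called genes of each list with the smallest p, at most 4 a list. AC007128.1, KRT5, COL1A1, the genes that overlap members, TUBA3C, TUBB4A, VBP1, TBCD, TBCE, SCAPER and TTL, and those in the closing section, were named after their values were seen. Floors of 3 counts cover counting error only. Some sequences and 1 marker gene are not reported here.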

Additional observations from a re-analysis of the deposited data

How the results depend on the processing

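The number of members called higher, 7, was 5 to 7 with each sample left out, 6 with library size only, with glmTreat against a fold of 1.5 and with the replicate block, and 9 with no limit on fold change. No member was called lower in any setting run. TUBB4B, TUBA1B, TUBB2A, TUBB2B and TUBB3 kept their calls in every setting run for them. With each sample left out TUBB6 ranged from -0.12 to 0.32 on the log2 scale, the lowest without shAC007128.1 replicate 1, and the difference in the share of TUBA4A, -0.35 percentage points, ranged from -1.09 to 0.41, with 0.41 without shCtrl replicate 3 and 0.10 without shAC007128.1 replicate 3. With no limit on fold change, by construction, 4041 genes were called higher in place of 1073 and 3820 lower in place of 1945, and 84 genes of the related lists in place of 37. Leaving out each sample gave 970 to 1068 higher, 1586 to 2023 lower and 34 to 39 list genes. The beta total's ratio was 2.03 with the length of all annotated exons in place of 1.91, and 1.89 to 1.95 with each sample left out. The alpha ratio of 2.23 was then 2.05 to 2.43. Same-numbered samples share only a number: their deviations from the group means correlated at 0.031, -0.025 and -0.03. With the replicate block 977 genes were called higher and 1692 lower, and TUBA1A lost its call (log2 fold change 1.505, adjusted p = 0.0735 by edgeR) as the one member to do so. Scaling to library size only moved the median of all genes by -0.07 on the log2 scale. With 3 samples per group and 1 hairpin, the hairpin and the line that carries it cannot be told apart.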

Other observations

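Some tubulin-related sequences outside the comparisons also held reads. The pseudogene TUBBP5 had 100, 157 and 96 counts in shCtrl and 109, 183 and 126 counts in shAC007128.1 samples. TUBB1, the beta tubulin of platelets, had 31, 20 and 7 counts in shCtrl and 45, 19 and 114 in shAC007128.1 samples. Its highest count was in shAC007128.1 replicate 3. The unnamed gene ENSG00000198211, which shares 1584 bases with TUBB3, had 83, 71 and 0 counts in shCtrl and 0, 91 and 108 in shAC007128.1 samples, while TUBB3 had 1261, 915 and 1424 and then 3128, 2771 and 2018. The samples in which that gene was at 0, shCtrl replicate 3 and shAC007128.1 replicate 1, were those in which TUBB3 was highest in its group. Summed, the pair had a log2 fold change of 1.48 against 1.51 for TUBB3 alone.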
